A study of Mus musculus and Homo sapiens
Mus musculus with 16 samples.

Results

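The D-type cyclin genes Ccnd1, Ccnd2 and Ccnd3 were examined in the H3K4me3 PLAC-seq data of mouse fetal forebrain. PLAC-seq joins neighbouring DNA ends in fixed nuclei and then uses an antibody to enrich the joined fragments that carry a histone mark, here one of active and poised promoters. The data were lists of called interactions between bins of 10 kb on the same chromosome, in mm10, from 2 libraries at E16.5 and 2 at E12.5. A listed interaction was assigned to a gene when either bin overlapped the gene's body. The 3 genes are members of a set of 20665 autosomal protein-coding genes, and 85 of the 58543 bin pairs listed in any library touched them. The series has 16 samples, and the other 12 (DNA and RNA libraries of a cell mix, adult cortex and fetal forebrain) are not part of these comparisons. The labels give the stage and the tissue of the 4 libraries and no genotype, treatment or strain of the embryos; the extraction text of E12.5 replicate 1 describes adult cortex of C57BL/6J mice, while its title, tissue and stage labels give fetal forebrain at E12.5. The labels do not say whether the replicates are separate litters, so p-values cover only the spread between these samples, which may be technical. The forebrain is a mix of progenitors, neurons and other cells, and fewer cells that form a contact cannot be told apart from a weaker contact in each cell.

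D-type cyclins are the regulatory subunits that activate the kinases CDK4 and CDK6 in the G1 phase of the cell cycle. The active kinases phosphorylate the retinoblastoma protein, which frees E2F transcription factors and lets the cell enter S phase. In the developing forebrain, Ccnd1 and Ccnd2 are known as cyclin genes of dividing progenitors, and exit from the cell cycle accompanies the birth of neurons. The stages bracket this time: progenitors make up much of the wall of the forebrain at the early stage, and neurons have accumulated by the later one.

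Library size set the scale of every comparison. The E16.5 libraries listed 35291 and 36794 interactions with 892987 and 911710 read pairs, against 18413 and 16075 interactions with 446855 and 405491 read pairs in the E12.5 libraries. Total sequencing depth is unknown, and absence from a list does not show that a pair of bins made no contact. The forebrain marker genes Emx1, Emx2, Lhx2, Otx1, Six3, Dlx1 and Dlx2 all had listed interactions in every library, summing over the 7 genes to 275 and 269 at E16.5 and to 306 and 322 at E12.5. Genes of other brain regions were present too, with summed numbers of 61 and 33 at E16.5 and of 140 and 85 at E12.5, and 7 of the 8 genes of that list had an interaction in some library; their part in the results below was not tested. The 2 microglial genes summed to 1 to 2 per library, the 2 endothelial genes to at most 1, and the 1 erythroid gene measured was at 0 in all 4 libraries, while the 2 meningeal genes summed to 21 and 9 at E16.5 and to 11 and 13 at E12.5.

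Ccnd1 lies on chr7:144929931-144939831, Ccnd2 on chr6:127125162-127152188 and Ccnd3 on chr17:47505051-47599689 (RefSeq, GRCm38.p6, the assembly of mm10). Their bodies span 2, 4 and 10 bins. The windows shown are those of Ccnd3, of the partner genes Parp11 and Med20, and of the non-coding gene 9330179D12Rik, whose start falls in a bin of Ccnd2. They were taken from RefSeq and run from 250 bases before to 50 after each start, and are shown because the listed interactions of Ccnd3 and Ccnd2 tie the bins that hold them. Capitals mark GC boxes (GGGCGG) and CCAAT boxes (CCAAT) on either strand, 5′ to 3′ along the gene's strand, which is plus for all 6.
Ccnd3 start 1, chr17:47504801-47505100: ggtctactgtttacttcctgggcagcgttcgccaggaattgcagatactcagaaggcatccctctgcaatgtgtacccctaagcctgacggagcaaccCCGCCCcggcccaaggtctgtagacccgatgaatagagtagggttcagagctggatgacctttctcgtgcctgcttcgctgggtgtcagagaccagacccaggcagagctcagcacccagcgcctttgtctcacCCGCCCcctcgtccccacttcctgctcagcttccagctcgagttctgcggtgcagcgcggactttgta
Ccnd3 start 2, chr17:47593217-47593516: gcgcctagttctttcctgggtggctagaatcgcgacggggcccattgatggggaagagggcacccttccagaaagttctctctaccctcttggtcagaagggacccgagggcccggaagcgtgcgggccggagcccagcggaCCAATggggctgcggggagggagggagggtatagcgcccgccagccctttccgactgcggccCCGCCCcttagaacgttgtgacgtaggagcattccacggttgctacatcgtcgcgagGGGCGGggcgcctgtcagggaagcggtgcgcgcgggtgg
Med20, chr17:47611335-47611634: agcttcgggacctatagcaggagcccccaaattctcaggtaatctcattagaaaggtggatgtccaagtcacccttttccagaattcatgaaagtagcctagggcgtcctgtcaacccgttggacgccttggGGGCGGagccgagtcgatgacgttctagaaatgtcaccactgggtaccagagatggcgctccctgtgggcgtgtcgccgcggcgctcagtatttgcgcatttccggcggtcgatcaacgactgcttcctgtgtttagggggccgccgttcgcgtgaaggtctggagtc
Parp11 start 1, chr6:127446590-127446889: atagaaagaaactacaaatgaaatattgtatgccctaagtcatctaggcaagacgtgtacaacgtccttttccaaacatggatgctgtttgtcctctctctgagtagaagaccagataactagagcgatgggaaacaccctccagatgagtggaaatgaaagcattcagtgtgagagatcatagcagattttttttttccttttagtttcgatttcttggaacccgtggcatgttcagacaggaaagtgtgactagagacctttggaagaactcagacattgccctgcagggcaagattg
Parp11 start 2, chr6:127453377-127453676: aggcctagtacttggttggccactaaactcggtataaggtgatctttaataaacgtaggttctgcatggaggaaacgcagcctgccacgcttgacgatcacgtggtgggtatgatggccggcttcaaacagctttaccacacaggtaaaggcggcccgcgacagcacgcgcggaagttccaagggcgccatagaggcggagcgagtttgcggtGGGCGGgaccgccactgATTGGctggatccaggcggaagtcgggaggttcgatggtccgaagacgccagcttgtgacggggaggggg
9330179D12Rik, chr6:127149139-127149438: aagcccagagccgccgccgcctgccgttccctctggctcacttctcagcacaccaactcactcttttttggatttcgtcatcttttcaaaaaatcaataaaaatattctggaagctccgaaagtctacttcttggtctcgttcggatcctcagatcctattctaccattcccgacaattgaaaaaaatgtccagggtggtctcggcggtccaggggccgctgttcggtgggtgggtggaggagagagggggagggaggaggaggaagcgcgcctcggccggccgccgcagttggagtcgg

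Both Ccnd3 windows held more CpG than most, with 28 CpG dinucleotides at the second start and 15 at the first, against a median of 7 over 32851 RefSeq windows of the same length. The second Ccnd3 window held 2 GC boxes and 1 CCAAT box, and the first held 2 GC boxes and no CCAAT box. A GC box is present in 35.7% of all windows and a CCAAT box in 37.4%. The Parp11 starts differed: the second had 25 CpG and a GC content of 59%, and the first had 5 CpG and a GC content of 42%. A TATA box (TATAAA) was in none of the 6 windows and in 13.6% of all windows. The MboI site GATC, at which the chromatin was cut, occurred 3 times in the second Parp11 window, 2 times in that of 9330179D12Rik, 1 time each in the first Parp11 window and that of Med20, and in neither Ccnd3 window; 48% of all windows hold one.

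Ccnd1 and Ccnd3 had fewer listed interactions at E16.5 than at E12.5 although the E16.5 lists were longer, while Ccnd2 had nearly equal numbers. Relative to the TMM-scaled length of the lists Ccnd1 and Ccnd2 fell, as did 3.62% of the 4036 tested genes; Ccnd3 was lower as well, but entered the test only through its E12.5 numbers. Ccnd2 was the best connected of the 3 in every library. Per bin of gene body, it had 8.75 and 10.75 interactions at E16.5 and 9 and 10 at E12.5. Ccnd1 had 4.5 and 4 per bin at E16.5 and 7 and 8 at E12.5. Ccnd3 came last with 0 and 0.3 at E16.5 and 0.9 and 0.6 at E12.5. The order held in each of the 4 libraries, and the ranges of the genes did not overlap within a stage. By the sum over libraries, 98% of the 4036 tested genes had fewer interactions than Ccnd2, 80.7% fewer than Ccnd1 and 39.4% fewer than Ccnd3. The sum hides a difference between stages. For Ccnd1 the shares were 58.3% and 47.6% at E16.5 and 90.3% and 93.2% at E12.5. For Ccnd3 they were 0% and 5.28% at E16.5 and 80.3% and 70.4% at E12.5. For Ccnd2 they were 95.4% and 97% at E16.5 and 98.6% and 99.1% at E12.5.

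Ccnd1, the cyclin D1 gene, had 9 and 8 listed interactions in the E16.5 libraries and 14 and 16 in the E12.5 libraries. The stages did not overlap, and the E16.5 numbers were the lower ones. Raw numbers lower in both E16.5 libraries were found for 3.39% of tested genes, and raw numbers higher in both for 64.5%. The read pairs behind the interactions were 202 and 156 at E16.5 and 393 and 444 at E12.5. Per 1000 listed interactions, Ccnd1 held 0.255 and 0.217 at E16.5 and 0.76 and 0.995 at E12.5. In edgeR's quasi-likelihood test across all 4036 genes, Ccnd1 fell 3.16-fold relative to the scaled list length (log2 change -1.66, SE 0.35, adjusted p = 0.00511). The call did not hold with lists of equal length (log2 change -1.17, adjusted p = 0.0891) or without E12.5 replicate 2 (adjusted p = 0.0543).

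Ccnd3, the cyclin D3 gene, had 0 and 3 listed interactions at E16.5 and 9 and 6 at E12.5. Again the stages did not overlap, and E16.5 replicate 1 listed none. The read pairs were 0 and 77 at E16.5 and 275 and 234 at E12.5. Ccnd3 reached the minimum sum of 10 only through its E12.5 numbers, so it entered the test as a gene that was high at that stage, and its fitted value is given as a description. That value was 8.29-fold lower at E16.5 on the same scale in edgeR's quasi-likelihood fit (log2 change -3.05, SE 0.74, adjusted p = 0.0132). Without E12.5 replicate 1 the adjusted p was 0.0505.

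Ccnd2, the cyclin D2 gene, had 35 and 43 listed interactions at E16.5 and 36 and 40 at E12.5. These ranges overlapped. The read pairs, 1060 and 1363 at E16.5 and 1208 and 1213 at E12.5, overlapped as well. Only after scaling did the stages separate, with 0.992 and 1.17 per 1000 listed interactions at E16.5 and 1.96 and 2.49 at E12.5. On that scale Ccnd2 fell 1.76-fold in edgeR's quasi-likelihood test (log2 change -0.82, SE 0.22, adjusted p = 0.0186). Raw numbers that stayed level beside longer E16.5 lists were not particular to Ccnd2. The 7 forebrain marker genes summed to 275 and 269 at E16.5 and 306 and 322 at E12.5. Among them Emx1 went the other way (14 and 23 at E16.5, 6 and 3 at E12.5). With lists of equal length it had 24 and 30 at E16.5 and 34 and 40 at E12.5, and the call did not hold (log2 change -0.37, adjusted p = 0.438). The call was also lost when E16.5 replicate 1 (adjusted p = 0.0953), E12.5 replicate 1 (adjusted p = 0.0659) or E12.5 replicate 2 (adjusted p = 0.194) was left out.

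The calls of Ccnd1 and Ccnd2 stand against a background in which 3.62% of the 4036 tested genes were called lower at E16.5 (146 genes), 11% higher (442 genes) and 14.6% either way. The tested genes include 289 at 0 in both E12.5 libraries and 4 at 0 in both E16.5 libraries, which reached the minimum sum through the other stage alone. DESeq2 called none of the 3 (adjusted p of 0.114 for Ccnd1, 0.373 for Ccnd2 and 0.166 for Ccnd3). Numbers of neighbouring bins are not independent, and the median quasi-dispersion of 0.844 lies below the value of counting noise. Under TMM scaling the median log2 change of all tested genes was 0.24 and 75.2% of calls were higher; scaling by library total alone gave 0.04 and 62.5%. Ccnd1 and Ccnd2 were lower under both, and each lay below that median. Ccnd3 did so too, but it entered the test only through its E12.5 numbers, so its place is a description.

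**Figure D1:**
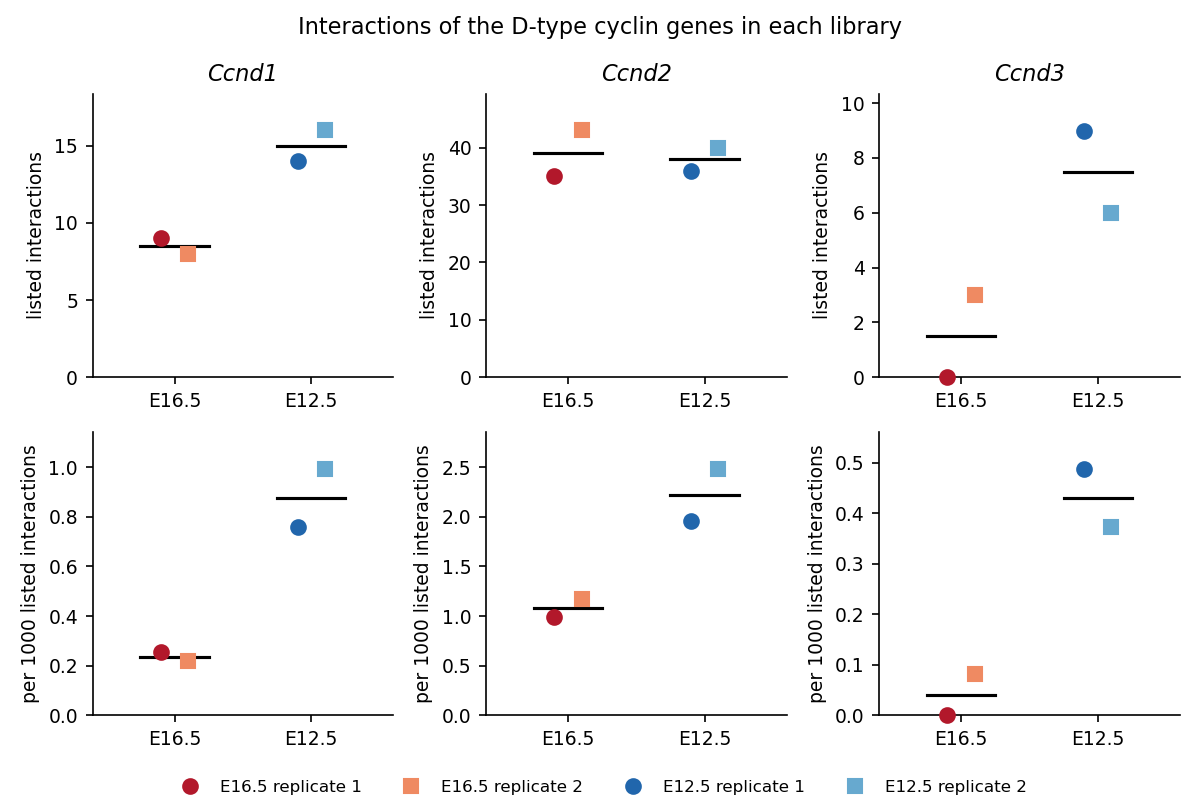
Listed interactions of Ccnd1, Ccnd2 and Ccnd3 in each library, as numbers (top row) and per 1000 listed interactions of the library (bottom row); points are libraries and horizontal lines are means of 2. For Ccnd1 the E16.5 libraries (9 and 8) sit below the E12.5 libraries (14 and 16) in both rows, while for Ccnd2 the stages overlap in number (35 and 43 against 36 and 40) and separate only after scaling.

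The interactions of Ccnd1 reached into Tpcn2, a gene of an endolysosomal cation channel. Of its 21 bin pairs, 20 had their partner on the higher-coordinate side, 180 to 390 kb away, and 1, seen in E12.5 replicate 1 with 22 read pairs, reached 350 kb the other way to the bin of the death-domain adaptor gene Fadd and the chloride channel gene Ano1. At least 95% of partners lay on the same side for 57.2% of the 2419 genes with at least 10 bin pairs. Bins overlapping Tpcn2 took 94.6% and 90.4% of the Ccnd1 read pairs at E16.5 and 77.4% and 73.9% at E12.5. The start of Tpcn2 lies in bin chr7:145280001-145290000, but the most read pairs fell inside its body. The leading partner bin, chr7:145240001-145250000, had 45 and 26 read pairs at E16.5 and 55 and 62 at E12.5. It was followed by chr7:145230001-145240000 (35 and 31 at E16.5, 43 and 59 at E12.5), chr7:145220001-145230000 (25 and 21 at E16.5, 55 and 36 at E12.5), chr7:145210001-145220000 (17 and 18 at E16.5, 44 and 42 at E12.5) and chr7:145200001-145210000 (17 and 11 at E16.5, 32 and 23 at E12.5). In each of the 5 bins both E16.5 libraries were below both E12.5 libraries. The last of them also holds Smim38, a gene for a small integral membrane protein.

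The bin pairs of Ccnd1 that dropped out of the lists at E16.5 were mainly the nearer ones. Partners 180 to 260 kb away were listed 0 and 2 times at E16.5 and 6 and 7 times at E12.5. Partners 270 to 320 kb away were listed 6 times in each of the 4 libraries. Partners 330 to 390 kb away on the same side were listed 3 and 0 times at E16.5 and 1 and 3 times at E12.5. These distance limits were not set in advance. The middle class is exactly the 6 bin pairs listed in all 4 libraries, so its equal numbers follow from the limits. The median distance was 310 and 285 kb at E16.5 and 275 kb in both E12.5 libraries. The difference of 22.5 kb had an exact two-sided permutation p of 0.333, the smallest that 2 libraries against 2 can give. Over the whole lists the median distance was 300 and 290 kb at E16.5 and 260 kb in both E12.5 libraries, so the lists as a whole had longer distances at E16.5 too. Of the 21 bin pairs, 10 were listed at E12.5 alone, 3 of these in both E12.5 libraries, and 1 at E16.5 alone. Over the 58543 bin pairs of the series, 11.7% were listed in all 4 libraries. The share listed at a single stage was not worked out, so the numbers for Ccnd1 are a description only.

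Of the 6 Ccnd1 contacts listed in all 4 libraries, 5 fell in read pairs and 1 did not pass the test. Contact strength was tested on 6875 such bin pairs, of which 4.58% were called lower at E16.5, 6.02% higher and 10.6% either way. The contact with chr7:145210001-145220000 fell 3.13-fold in edgeR's quasi-likelihood test (log2 change -1.65, SE 0.28, adjusted p = 3.34e-05). Those with the bins from 145220001 and 145200001 fell 2.53-fold and 2.50-fold (adjusted p = 0.000467 and 0.00163), and those with the bins from 145240001 and 145230001 fell 2.11-fold and 1.98-fold (adjusted p = 0.00189 and 0.00571). The farthest of the 6, with chr7:145250001-145260000 at 320 kb, had 25 and 18 read pairs at E16.5 and 20 and 18 at E12.5 (log2 change -0.18, adjusted p = 0.793). In 5 of the 6 contacts the raw read pairs of both E16.5 libraries lay below those at E12.5, against 7.87% of all 6875. The 6 contacts share the same Ccnd1 bin and their partner bins are adjacent. They are therefore not independent, and 5 of 6 cannot be weighed against that share as separate observations. DESeq2 called 1 of the 6 lower, and without E12.5 replicate 1 edgeR called 3.

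The authors' expected count for these 6 contacts was also lower at E16.5. Its median was 3.04 and 3.12 at E16.5 and 4.87 and 4.77 at E12.5, and it was lower in both E16.5 libraries for all 6 contacts, as it was for 8.13% of all contacts tested. Over all 6875 contacts the median expected count was 6.53 and 5.69 at E16.5 and 5.24 and 4.87 at E12.5. The ratio of observed to expected read pairs for the 6 contacts had a median of 9.02 and 7.62 at E16.5 and 8.65 and 7.94 at E12.5, and these medians overlap. Contact by contact, both E16.5 ratios lay below those at E12.5 in 1 of the 6 and above them in 1. Over all 6875 contacts these shares were 12.8% and 31.2%. The 6 contacts share a bin, so these numbers are a description only. At the leading bin the ratio was 15.1 and 8.53 at E16.5 and 11.2 and 12.6 at E12.5. With the expected count as an offset, none of the 6 passed (smallest adjusted p = 0.344), and edgeR called none of the 6875 contacts, 693 of which had an unadjusted p under 0.05. The model behind this expected count was not described, and its part in the lower read pairs of Ccnd1 was not tested.

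**Figure D2:**
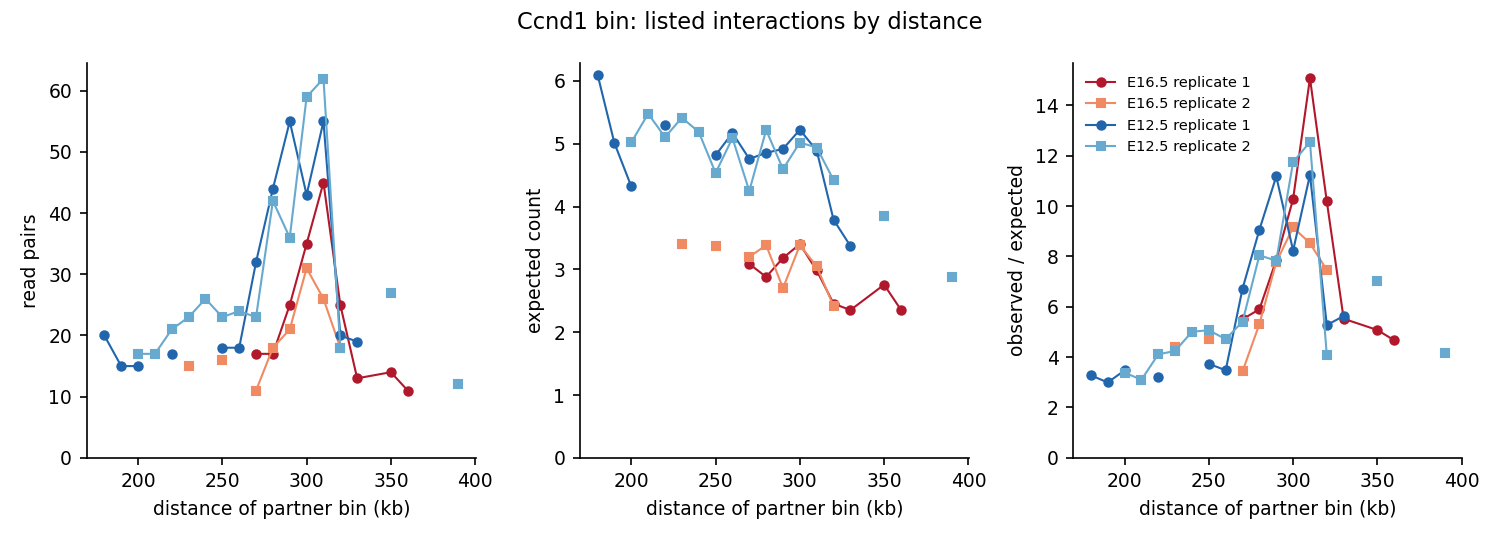
Read pairs (left), the authors' expected count (middle) and their ratio (right) of the listed interactions between bin chr7:144930001-144940000 of Ccnd1 and partners on its higher-coordinate side, by distance in kb; each line is a library and gaps are distances not listed. Read pairs peak between 290 and 310 kb in all 4 libraries, the E16.5 lines run below the E12.5 lines in read pairs and in expected count up to 310 kb. The ratios of the stages overlap at 4 of the 6 distances listed in all 4 libraries, and are lower at E16.5 at 280 kb and higher at 320 kb.

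Other genes share the bins of Ccnd1. All but 1 of its bin pairs start from chr7:144930001-144940000, which also overlaps LTO1, a gene of ribosome maturation, so the contacts of this bin count for both. LTO1 had 11 and 11 interactions at E16.5 and 20 and 23 at E12.5 (log2 change -1.81, adjusted p = 0.00137, edgeR). The next bin, chr7:144940001-144950000, lies outside the gene and had 11 and 6 interactions at E16.5 and 12 and 12 at E12.5, most of them with the same partner bins (8 and 6 at E16.5, 11 and 11 at E12.5). With the body widened by 10 kb on both sides, Ccnd1 had 22 and 17 interactions at E16.5 and 32 and 35 at E12.5, and its log2 change was -1.63. Among the partner genes, Tpcn2 (19 and 16 at E16.5, 24 and 23 at E12.5) fell with a log2 change of -1.28 (adjusted p = 0.00675); its count includes the contacts with Ccnd1. Ano1 (9 and 9 at E16.5, 18 and 14 at E12.5) and Fadd (6 and 9 at E16.5, 12 and 12 at E12.5) fell as well (adjusted p = 0.00422 and 0.014, edgeR). Both overlap the bin from 144580001, so these 2 values are not separate results. That bin had 5 and 7 interactions with bins outside Ccnd1 at E16.5 and 10 and 10 at E12.5, which count for both genes.

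The interactions of Ccnd2 all pointed to the higher-coordinate side, into 41 bin pairs without a protein-coding gene and 13 with Parp11, a gene of a mono-ADP-ribosyltransferase. Of its 54 bin pairs, 26 were listed in all 4 libraries, a share of 48.1% against 11.7% of all bin pairs of the series. The share was 28.6% for Ccnd1, and 0 of 10 for Ccnd3. The partners lay 90 to 330 kb away, in 25 bins. Nearly all started from the last 2 bins of the gene body: chr6:127140001-127150000 had 15 and 14 interactions at E16.5 and 20 and 18 at E12.5, and chr6:127150001-127160000 had 14 and 23 at E16.5 and 16 and 21 at E12.5. Both bins also overlap 9330179D12Rik, whose RefSeq starts lie in the first of them, so the contacts of the cyclin gene and of this non-coding gene cannot be told apart.

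The partner bin of Ccnd2 with the most read pairs in both E16.5 libraries lay in Parp11. This bin, chr6:127450001-127460000, holds the second, CpG-rich Parp11 start and had 143 and 208 read pairs at E16.5 and 91 and 69 at E12.5. The bin before it, chr6:127440001-127450000, holds the first Parp11 start and had 134 and 99 read pairs at E16.5 and 69 and 72 at E12.5. In both bins the E16.5 libraries were the higher ones. These values are totals over the bins of Ccnd2 and include bin pairs not listed at E12.5. Of the 5 single Parp11 contacts listed in every library, 3 were higher in both E16.5 libraries, against 50.7% of all such contacts. None of the 5 passed the test of contact strength. The other 3 leading bins were nearer and held no protein-coding gene: chr6:127330001-127340000 had 102 and 134 read pairs at E16.5 and 105 and 112 at E12.5, chr6:127360001-127370000 had 80 and 74 at E16.5 and 106 and 95 at E12.5, and chr6:127320001-127330000 had 70 and 91 at E16.5 and 108 and 69 at E12.5. Of these, the bin from 127360001 was lower in both E16.5 libraries and the other two overlapped between stages. Bins overlapping Parp11 took 28.8% and 29% of the Ccnd2 read pairs at E16.5 and 15.9% and 14.6% at E12.5. This difference of 13.6 percentage points had an exact two-sided permutation p of 0.333, the smallest possible, and it was looked at after the values were seen. Over the 26 contacts listed in every library, the Parp11 share was 26.4% and 26.5% at E16.5 and 18.8% and 18.1% at E12.5. That share was also looked at after the values were seen, and it rests on the 5 contacts, which share bins. The Parp11 bins are the farthest partners of Ccnd2. Over the whole lists the median distance was 300 and 290 kb at E16.5 and 260 kb in both E12.5 libraries. The cause of the difference in share was not tested.

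The first 2 bins of the Ccnd2 body contributed few bin pairs, with partners 200 to 330 kb away. Bin chr6:127130001-127140000 had 5 and 5 interactions at E16.5 and 0 and 1 at E12.5, and bin chr6:127120001-127130000 had 1 and 1 at E16.5 and none at E12.5. In all, 4 Ccnd2 bin pairs were listed in both E16.5 libraries and in neither E12.5 library. All 4 started from these 2 bins, and 3 of the 4 ended in Parp11: with the bin from 127450001 there were 19 and 27 read pairs from the second bin of the body and 16 and 21 from the first, and with the bin from 127440001 there were 17 and 20 from the second. In the other direction, 3 bin pairs were listed in both E12.5 libraries and in neither E16.5 library. The share of such bin pairs over the whole series was not worked out, so these numbers are a description only. The median distance of all Ccnd2 interactions was 250 and 230 kb at E16.5 and 220 kb in both E12.5 libraries, a difference of 20 kb (exact two-sided permutation p = 0.333, the smallest possible).

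Of the 26 Ccnd2 contacts listed in all 4 libraries, 4 fell in read pairs in edgeR's quasi-likelihood test and 22 did not pass. None rose, and DESeq2 called 0 of the 26. Over all 6875 contacts edgeR called 4.58% lower and 6.02% higher. The Ccnd2 contacts share bins, so 4 of 26 cannot be weighed against these shares as separate observations. All 4 that fell led to partners 200 to 230 kb away. The contact between chr6:127140001-127150000 and chr6:127360001-127370000 had 44 and 29 read pairs at E16.5 and 58 and 51 at E12.5 (log2 change -0.94, SE 0.25, adjusted p = 0.00697). The same partner bin seen from chr6:127150001-127160000 had 36 and 33 at E16.5 and 48 and 44 at E12.5 (log2 change -0.77, adjusted p = 0.0342). The contacts of the first of these bins with the bins from 127370001 and 127340001 fell as well (log2 changes of -0.86 and -0.85, adjusted p = 0.0276 and 0.0358). The contact with the highest log2 change ran from chr6:127150001-127160000 to the second Parp11 start and had 51 and 89 read pairs at E16.5 and 37 and 30 at E12.5; it did not pass (log2 change 0.71, SE 0.26, adjusted p = 0.0656). Leaving out 1 library cut the 4 calls to 1 (without E16.5 replicate 1, E16.5 replicate 2 or E12.5 replicate 1) or 2 (without E12.5 replicate 2), and 1 contact was higher without E16.5 replicate 1.

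Grouped by partner after the values were seen, and so without a test, the contacts ran in an order along the chromosome. The 14 contacts with partners 160 to 240 kb away had a median log2 change of -0.66, the 7 contacts farther out and outside Parp11 one of -0.23, and the 5 contacts with Parp11 one of 0.11. The median was -0.31 over the 26 Ccnd2 contacts and -1.20 over the 6 Ccnd1 contacts, against -0.01 over all 6875. These changes are relative to a TMM scaling of the contacts in common. With the library total in its place the median of all contacts was -0.73, 0.917% of calls were higher in place of 56.8%, and 23 of the 26 Ccnd2 contacts were called lower. Among the 26 contacts, 7 had fewer raw read pairs in both E16.5 libraries and 7 had more, while over all contacts these shares were 7.87% and 50.7%. The 26 contacts share bins and are not independent. With the authors' expected count as an offset none of the 26 passed (smallest adjusted p = 0.314), and the ratio of observed to expected had a median of 3.97 and 4.55 at E16.5 and 4.38 and 4.49 at E12.5.

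**Figure D3:**
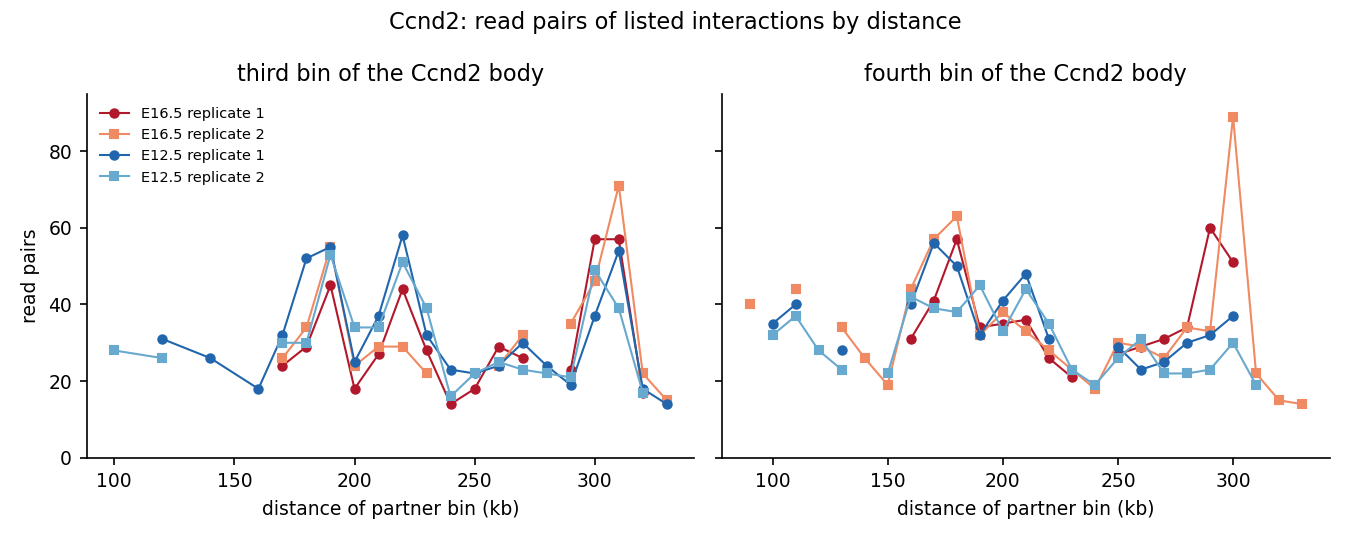
Read pairs of the listed interactions of the third bin (chr6:127140001-127150000, left) and the fourth bin (chr6:127150001-127160000, right) of the Ccnd2 body, by distance of the partner in kb; each line is a library and gaps are distances not listed. The last peak, at 300 to 310 kb on the left and 290 to 300 kb on the right, falls on the Parp11 bins and reaches 89 read pairs in E16.5 replicate 2, while the E12.5 libraries are higher around 220 kb on the left.

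**Figure D4:**
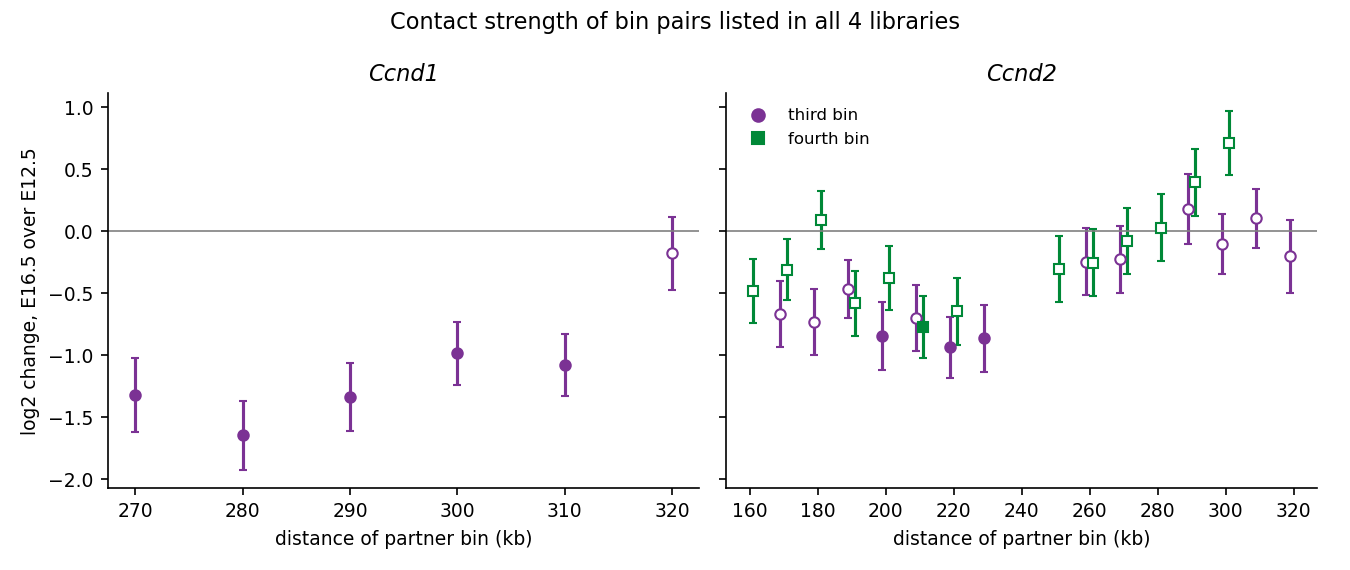
Log2 change in read pairs, E16.5 over E12.5, of the contacts of Ccnd1 (6, left) and Ccnd2 (26, right) listed in all 4 libraries, by distance in kb. Bars are the SE, filled points passed an adjusted p of 0.05 and open points did not; for Ccnd2 circles are the third bin of the body and squares the fourth, shifted by 1 kb to either side. Of the Ccnd1 contacts, 5 fell, and the Ccnd2 contacts range from -0.94 near 220 kb to 0.71 at 300 kb.

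Ccnd3 differed from the other two in reach: its contacts lay mostly within or just beyond its own body. Of its 10 bin pairs, 3 joined bins of the gene itself, and 9 of 10 were 70 to 170 kb long. The pair that joins the bins of its 2 RefSeq starts, printed above, is chr17:47500001-47510000 with chr17:47590001-47600000, 90 kb apart. It had no listing in E16.5 replicate 1 and 36 read pairs in E16.5 replicate 2, and 33 and 42 read pairs at E12.5. The first bin also holds the start of Taf8, a gene of a TFIID subunit, and the second overlaps the end of Bysl, a gene of small ribosomal subunit assembly. The second body bin, chr17:47510001-47520000, met the same partner bin with no listing and 27 read pairs at E16.5 and 45 and 52 at E12.5. The third, chr17:47520001-47530000, met it with no listing at E16.5 and 41 and 50 read pairs at E12.5. E16.5 replicate 1 thus listed none of the 3 pairs within the gene, and E16.5 replicate 2 listed 2 of them.

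Beyond the gene, Ccnd3 met the bins of Bysl and of Med20, a gene of a Mediator subunit, at E12.5. From the second body bin, neither partner was listed at E16.5; at E12.5, chr17:47600001-47610000 had 29 and 29 read pairs, and chr17:47610001-47620000, which holds the Med20 start, had 30 and 33. From the first body bin these partners had 22 and 28 read pairs, and 38 in E12.5 replicate 1 alone. The 5 partner bins with the most read pairs are these 3 bins, the bin from 47680001 (23 read pairs in E12.5 replicate 1), which holds parts of Usp49, Tomm6, Frs3, Prickle4 and Gm20517, and 1 of 2 bins tied at 14 read pairs. The tied bins are that of Usp49 and Gm20517 from 47670001, in E12.5 replicate 1, and that of Ubr2, a ubiquitin ligase gene 490 kb away, in E16.5 replicate 2. In all, 7 Ccnd3 bin pairs were listed at E12.5 alone, 4 of them in both E12.5 libraries, and 1 at E16.5 alone. The share of such bin pairs over the whole series was not worked out, so these numbers are a description only. No Ccnd3 bin pair was listed in all 4 libraries, so contact strength could not be tested. The ratio of observed to expected was low, with medians of 2.36 in E16.5 replicate 2 and of 2.55 and 2.84 at E12.5, close to the smallest ratio of any listed interaction, which was 2. With lists of equal length Ccnd3 had 0 and 0 interactions at E16.5 and 6 and 6 at E12.5. Among the partner genes, Bysl had 0 and 4 interactions at E16.5 and 7 and 6 at E12.5 (log2 change -2.47, adjusted p = 0.0386, edgeR). Of these, 0 and 2 at E16.5 and 7 and 6 at E12.5 were the contacts with Ccnd3, so the value restates that of Ccnd3, and Bysl too reached the minimum sum of 10 only through its E12.5 numbers. Med20, Usp49, Tomm6, Frs3, Prickle4, Gm20517, Ubr2 and Taf8 had too few interactions to be tested.

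**Figure D5:**
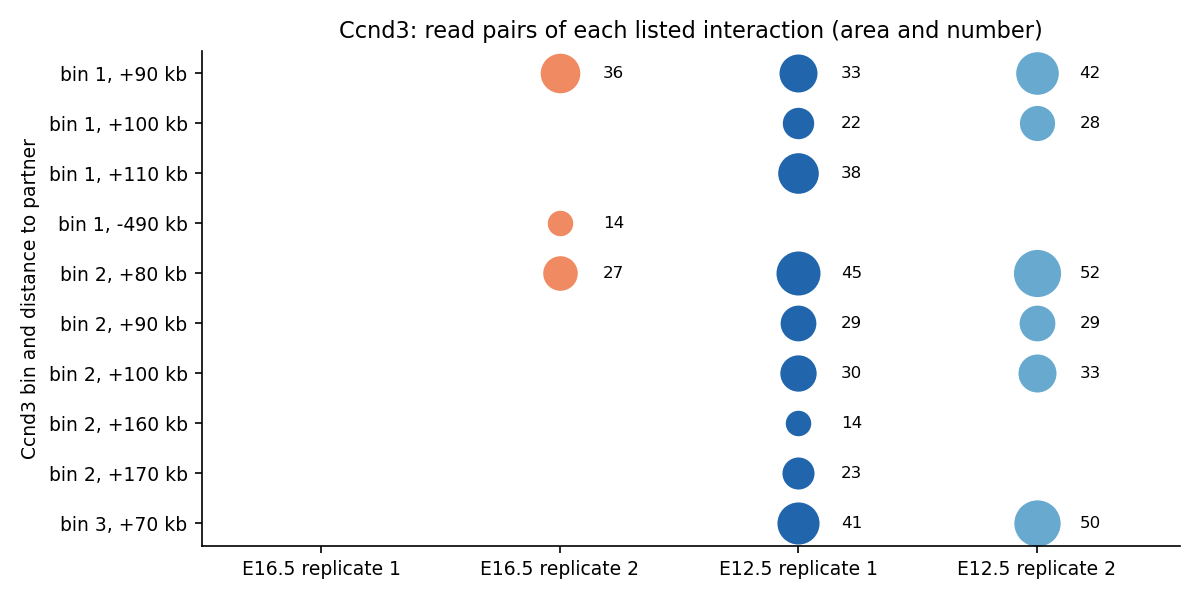
Every listed interaction of Ccnd3 (rows: the bin of the gene body, counted from its lower-coordinate end, and the signed distance of the partner in kb) in each library (columns); the area and the number give the read pairs. E16.5 replicate 1 is empty and E16.5 replicate 2 holds 3 interactions, against 9 and 6 in the E12.5 libraries.

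The partner regions were tied to the D-type cyclin genes to different degrees. For Ccnd2, the 25 partner bins took part in 54 bin pairs with the gene and in 12 with other bins, 6 of the latter between partner bins themselves. For Ccnd1, the 20 partner bins took part in 21 bin pairs with the gene and 39 with other bins. Of those 39, 16 led to the adjacent bin chr7:144940001-144950000, 7 to the bin of the LTO1 start and 4 to the bin of Fgf15, a fibroblast growth factor gene. For Ccnd3, the 5 partner bins outside the body had 7 bin pairs with the gene and 5 with other bins. As a gene, Parp11 had 17 and 17 interactions at E16.5 and 8 and 7 at E12.5 and did not pass relative to the scaled list length (log2 change 0.32, SE 0.35, adjusted p = 0.687, edgeR).

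Other genes of the cell cycle were taken from 2 lists. Of 29 regulators of the step from G1 to S phase, 23 had an interaction in some library, 9 were tested, 1 rose, none fell and 8 did not pass (before adjustment 3 lay under 0.05; with DESeq2, 1 was higher and 0 lower). Over all 4036 tested genes 11% were called higher and 3.62% lower, so 1 of 9 is near the background. The median log2 change of the 9 was -0.15, against 0.24 for all tested genes. The gene that rose was Myc, a transcription factor gene of growth and proliferation, with 48 and 64 interactions at E16.5 and 9 and 10 at E12.5 (log2 change 1.69, adjusted p = 0.0016). E2f7, an atypical E2F repressor gene, had 5 and 9 at E16.5 and 1 and 0 at E12.5 (adjusted p = 0.0766, edgeR). E2f7, which is among the 3 under 0.05 before adjustment, reached the minimum sum only through its E16.5 numbers, so its values are a description. Mycn, a Myc family gene of neural progenitors, had 80 and 89 at E16.5 and 61 and 58 at E12.5 (log2 change -0.35, adjusted p = 0.167). The kinase gene Cdk6, partner of the D-type cyclins, had 10 and 9 at E16.5 and 5 and 4 at E12.5, and the inhibitor genes Cdkn1c (18 and 15 at E16.5, 13 and 15 at E12.5) and Cdkn1b (2 and 2 at E16.5, 0 and 6 at E12.5) did not pass either. Of 29 other cyclin and cyclin-dependent kinase genes, 18 had an interaction, 6 were tested and none passed in edgeR's test (0 lay under 0.05 before adjustment, and 0 were called by DESeq2), with a median log2 change of 0.42. The smallest p-values were those of Cdk17, Cdk14 and Cdk9. Both E16.5 libraries had the higher raw numbers in 7 of the 9 and 5 of the 6 tested genes of these lists, and the lower ones in none. Over all tested genes these shares were 64.5% and 3.39%, so the counts are near the background. Several of these genes, among them Cdk6, Cdk9 and Cdk17, reached the minimum sum of 10 through their E16.5 numbers alone. Their higher E16.5 numbers are therefore a description, as for E2f7.

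By the root mean square difference of log2 interactions per 1000 listed over the 4 libraries, the genes nearest to Ccnd1 were Barhl2, a homeobox gene (11 and 9 at E16.5, 16 and 14 at E12.5, difference 0.191), Ano1 (0.206) and Arid3a, a DNA-binding protein gene (8 and 11 at E16.5, 14 and 13 at E12.5, difference 0.249). Nearest to Ccnd2 were the transcription factor gene Prdm16 (37 and 38 at E16.5, 39 and 41 at E12.5, difference 0.111), the predicted gene Gm52006 (0.183) and the corepressor gene Irf2bp2 (0.197). Nearest to Ccnd3 were Ppp1r12c, a myosin phosphatase subunit gene (0 and 5 at E16.5, 8 and 4 at E12.5, difference 0.362), the SUMO ligase gene Pias1 (0.521) and Mdfi (0.589). Over 4034 or 4035 genes compared on 4 values, such nearest neighbours are a description only.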

How the data were processed

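The deposited files hold, per the file headers, called interactions between bins of 10 kb, with 3 columns used here: a count of read pairs, the authors' expected count, and an FDR, which is the authors' q-value for the bin pair. The submitters' processing notes name mm10 as the build and list BWA and SAMtools; for the versions and for the calling step, the sources used here state nothing. All listed pairs had an FDR under 0.01, a count of at least 2 times the expected count and a distance of 20 to 1000 kb. Counts were used as deposited. Groups came from the sample titles. Gene bodies came from the RefSeq table of GRCm38.p6, and starts and promoter windows from its sequence table, which held 1 of the 3 members.

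Interactions per gene (sum of at least 10 over the libraries, 4036 genes) and read pairs of the 6875 bin pairs listed in all 4 libraries were tested with edgeR 4.0.16 in R 4.3.3: TMM, robust quasi-likelihood, stage as the sole term, Benjamini-Hochberg over all features at 0.05, as E16.5 minus E12.5. Standard errors were taken as the size of a log2 change over the square root of F. Single values per library were compared by exact permutation. The tests were tried on simulated data: of features changed by 1 or 2 on the log2 scale, 14.4% and 68.3% were recovered for interactions per gene, with 4 false calls among 3605 genes, and 30% and 95% for contact strength, with 7 false calls among 6875. Simulated counts were independent between features, while genes and contacts of the data share bins. The simulated false calls therefore do not give the rate of false calls in the data. As alternatives, DESeq2 1.42.0, scaling without TMM, other filters, equal-length lists (the best 16075 interactions of each library by FDR), a stricter FDR of 0.0001, 1 count per cluster, a wider body, gene ends, read pairs, distances up to 200 kb, the expected count as an offset, the replicate block and each library left out were run.

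Named were, by rule, the 3 members, their 5 partner bins with the most read pairs, every called contact, the genes in partner bins, list members past the threshold or with the 3 smallest p, and the 3 most alike genes per member (pseudocount 0.05). LTO1, Fgf15, Taf8, Cdk6, Cdkn1b and Cdkn1c were added after their values were seen. The members and lists were chosen with earlier results of these data known. At well-covered contacts, replicates differed by more than counting noise (chi-square 1.93 times its degrees of freedom at E16.5 and 1.34 times at E12.5), so none was a duplicate. Of the forebrain marker list, 1 gene is not reported here.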

Additional observations from a re-analysis of the deposited data

How the results depend on the processing

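All 3 genes kept a negative log2 change in interactions per gene under every alternative that gave a value. These were 16 for Ccnd1 (11 called), 16 for Ccnd2 (8 called) and 14 for Ccnd3, which lay under the threshold in 10. Ccnd3 passed the minimum sum of the main test only through its E12.5 numbers, so its values here are a description and no support. Calls were lost with DESeq2 (-1.63 for Ccnd1, -0.77 for Ccnd2, -3.13 for Ccnd3), with read pairs in place of interactions (-2.15, -0.93 and -3.68, when edgeR called 0 genes higher and 0 lower, 1563 with an unadjusted p under 0.05), with lists of equal length (-1.17 for Ccnd1, -0.37 for Ccnd2), with gene-end bins only (-0.74 for Ccnd2, -2.29 for Ccnd3), with distances of at most 200 kb (-0.99 for Ccnd2) and with each cluster counted once (-1.22 for Ccnd1). Too few interactions were left for Ccnd2 and Ccnd3 with clusters, for Ccnd1 within 200 kb and for Ccnd3 at an FDR under 0.0001 or a sum of at least 20. Leaving out each library gave -1.80 to -1.52 for Ccnd1, -0.94 to -0.69 for Ccnd2 and -6.25 to -2.12 for Ccnd3; the lowest Ccnd3 value sets the E12.5 libraries against a single library at 0 and depends on edgeR's prior count.

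The count of all genes called higher (442) and lower (146) was 70 and 27 with DESeq2, 158 and 90 with lists of equal length, 29 and 2 with clusters, 76 and 29 within 200 kb, 233 higher at an FDR under 0.0001, 248 lower with the library total, 245 lower with the wider body and 95 lower with gene ends; with a library left out it was 197 to 407 higher and 63 to 130 lower. Contacts called higher (414) and lower (315) were 33 and 3565 with the library total, 59 and 39 with DESeq2, 0 and 0 with the expected count as an offset, and 139 to 317 higher and 140 to 219 lower with a library left out. The Ccnd1 contacts called lower (5) were 1 with DESeq2, 0 with the offset and 3 to 5 with a library left out. The Ccnd2 contacts called lower (4) were 23 with the library total, 0 with DESeq2, 0 with the offset and 1 to 2 with a library left out; with a library left out 0 to 1 Ccnd2 contact was higher.

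With the replicate number as a block, 1 Ccnd2 contact was higher. The calls of Ccnd1 and Ccnd2 did not change (adjusted p of 0.00206 and 0.00645, edgeR), and the Ccnd3 fit, a description, gave 0.0102. The deviations of same-numbered libraries correlated at 0.127 over contacts and 0.08 over genes, and with 2 pairs the libraries share only a number. A floor of 1 on the quasi-dispersion was added once the data had been seen, and under it Ccnd1, Ccnd2 and the 9 contacts stayed called. The raw difference in number at Ccnd2 (1) turned to -1.14 per 1000 listed, -10 with lists of equal length and -1 at an FDR under 0.0001. The cause of these changes was not tested.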
